A study of Mus musculus with 14 samples.

Results

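Transcript levels of 8 transcription factors of the myeloid lineage were followed in mouse leukemia cells after CRISPR targeting of Sgf29. The factors are Spi1 (encoding PU.1), Cebpa, Cebpb, Cebpd, Cebpe, Gfi1, Ikzf1 and Id2, taken by gene symbol from a list of regulators of granulocyte and monocyte fate. They are 8 of 22155 genes in the count table, and all 8 were among the 11169 genes with enough counts to be tested. The cells, MLL-AF9-Cas9+ leukemia, carry the MLL-AF9 fusion oncogene and the Cas9 nuclease in both groups. The 3 sgCtrl libraries came from cells with a guide RNA against nonessential sequence and the 3 sgSgf29 libraries from cells with a guide against Sgf29, a reader subunit of the SAGA and ATAC histone acetyltransferase complexes. Guides were delivered by the ipUSEPR lentivirus, and both groups were selected in puromycin at 2 μg/ml for 3 days before total RNA was taken. The cells derive from lineage-depleted mouse bone marrow transformed with an MLL-AF9 retrovirus, so there is no untransformed arm. Nothing in the labels says whether the numbers 1 to 3 stand for repeats or for different guide sequences, or that they were separate cultures, and the p-values therefore reflect only the variation among these samples, which may be of technical origin.

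PU.1 and the C/EBP proteins are the factors that set blood progenitors on the path to granulocytes and monocytes. C/EBPα acts at the entry of progenitors into the granulocyte-monocyte path and C/EBPε later, in the formation of neutrophil granules, whereas C/EBPβ and C/EBPδ take part in emergency and inflammatory responses. Gfi1 is a zinc finger repressor that favors neutrophils over monocytes, Ikaros (Ikzf1) is a zinc finger regulator of lymphoid and myeloid cells, and Id2 is an inhibitor that binds E proteins and keeps them from DNA.

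Gfi1, Cebpa and Cebpb are shown by their promoters, since they had the largest fall, no change that passed the test, and the largest rise. Each window holds 250 bases before and 50 bases from the start site of a RefSeq transcript on GRCm38.p6, read along the strand of the gene. It is the window chr5:107725756-107726055 on the minus strand for Gfi1, chr7:35119043-35119342 on the plus strand for Cebpa and chr2:167688665-167688964 on the plus strand for Cebpb. Capitals mark AATC, the core of the Gfi1 site, in Gfi1, TATAAA in Cebpa, and TATAAA and TGACG, the core of the CREB site, in Cebpb, on either strand.
Gfi1 promoter: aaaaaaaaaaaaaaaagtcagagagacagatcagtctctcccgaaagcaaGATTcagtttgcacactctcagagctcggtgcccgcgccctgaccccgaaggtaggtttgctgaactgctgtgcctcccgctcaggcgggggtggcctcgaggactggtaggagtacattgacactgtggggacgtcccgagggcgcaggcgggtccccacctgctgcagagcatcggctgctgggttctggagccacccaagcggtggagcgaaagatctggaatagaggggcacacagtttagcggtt
Cebpa promoter: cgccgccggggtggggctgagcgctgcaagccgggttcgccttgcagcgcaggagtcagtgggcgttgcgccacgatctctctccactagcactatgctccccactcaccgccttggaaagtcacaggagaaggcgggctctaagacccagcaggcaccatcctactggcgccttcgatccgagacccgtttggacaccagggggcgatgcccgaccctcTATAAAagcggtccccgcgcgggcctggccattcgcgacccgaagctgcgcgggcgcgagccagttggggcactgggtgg
Cebpb promoter: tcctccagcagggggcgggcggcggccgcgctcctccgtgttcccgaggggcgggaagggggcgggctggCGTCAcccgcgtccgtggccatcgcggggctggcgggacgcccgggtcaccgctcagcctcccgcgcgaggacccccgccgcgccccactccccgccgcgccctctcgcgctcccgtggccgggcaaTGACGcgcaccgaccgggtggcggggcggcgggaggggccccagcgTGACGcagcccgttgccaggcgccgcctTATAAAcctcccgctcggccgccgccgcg

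A set of 6 motifs was searched on both strands in the 7 windows found for 5 of the factors, and a base may belong to a match of more than 1 motif. The Gfi1 window above held 1 AATC, 200 bases before the start. Another Gfi1 window, chr5:107724294-107724593, is not shown and had no match. AATC, also matched in the Id2 window and in 1 of 2 Ikzf1 windows, is frequent, with a match in 73.1% of 32851 mouse promoter windows of the same length. TATAAA lay 30 bases before the start in Cebpa and 21 bases after it in Cebpb, and was present in 13.6% of all windows. The Cebpb window held TGACG 180, 53 and 7 bases before the start, an Ikzf1 window held it as well, and 20.8% of all windows had at least 1 match. CCAAT was found in the Id2 window only, 159, 120 and 76 bases before the start, against 37.4% of all windows. The exact palindrome TTGCGCAA bound by C/EBP proteins (0.183% of all windows) and the PU.1 core GAGGAA (28.3%) had no match in the 7 windows, which says only that these letters are not there.

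Sgf29 mRNA was read as a check on the guide, although it measures neither editing nor protein. The paper examined Sgf29 protein by Western blot in the same cell model. The mRNA level was 36.1 to 40.4 CPM (counts per 1000000 gene counts, with libraries scaled by the trimmed mean of M, TMM) with sgCtrl and 12.6 to 17.4 CPM with sgSgf29. Sgf29 shares 61 exonic bases with Sult1a1 and 169 with 2510046G10Rik, both on the opposite strand. Libraries held 16003990 to 21786618 gene counts. The share of ribosomal protein genes was 19.1% to 19.8% of gene counts with sgCtrl and 12.2% to 13.8% with sgSgf29. Computing the TMM factors without these genes left 2 of the factors lower and 5 higher, as in the fit with them.

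Of the 8 factors, 7 passed edgeR's quasi-likelihood test at a Benjamini-Hochberg adjusted p under 0.05, against 69.8% of all tested genes. Gfi1 and Cebpd were lower (2 of 8, against 34.4% of all tested genes), and Spi1, Cebpb, Cebpe, Ikzf1 and Id2 were higher (5 of 8, against 35.4%). The groups did not overlap for the same 2 lower and 5 higher factors, against 35.1% of tested genes lower and 37% higher without overlap. Gfi1 alone changed by 2-fold or more, as did 14.8% of all tested genes at that adjusted p. With most of the transcriptome called, the number of called factors is close to the background. The median log2 fold change of the 8 factors was 0.33, beside 0.01 for all tested genes. Scaling by library size alone, in place of TMM, moved the median of all genes to 0.24 and every factor upward by a like amount, the values of Spi1, Cebpb, Cebpe, Ikzf1 and Id2 reaching 0.55, 0.67, 0.64, 0.66 and 0.57. Under that scaling Cebpd was at -0.21 and Cebpa passed the test at 0.26, so that the small changes described below depend on the scaling in size.

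**Figure D1:**
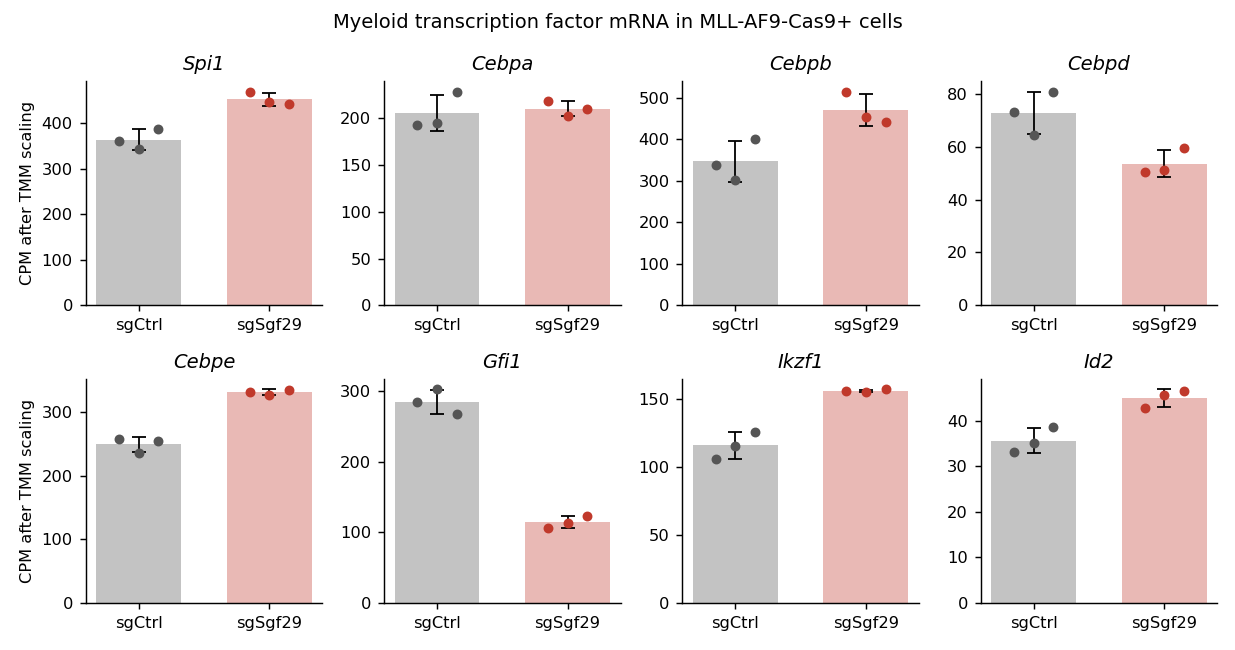
CPM after TMM scaling of each factor by group (sgCtrl grey, sgSgf29 red). Bars show means, error bars the SD of 3 libraries, and points single libraries. Gfi1 and Cebpd have their 3 sgSgf29 points under the sgCtrl points, Cebpa has them among these, and the other 5 factors have them above.

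Gfi1 showed the largest change of the 8. It measured 284, 302 and 268 CPM with sgCtrl and only 106, 113 and 123 CPM with sgSgf29. Every sgSgf29 library lay far under every sgCtrl library, with means of 285 ± 17.1 and 114 ± 8.34 CPM (SD, n = 3). The log2 fold change was -1.31 (95% interval -1.46 to -1.17, adjusted p = 1.5e-12 by edgeR's quasi-likelihood test), and 8.61% of tested genes changed by more in either direction. Gfi1 lies on the minus strand of chr5:107716655-107725805. It shares 101 exonic bases with a processed transcript on the opposite strand, A430072P03Rik, which is not a row of the count table.

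Spi1, which encodes PU.1, was at 361, 343 and 388 CPM with sgCtrl and at 469, 447 and 442 CPM with sgSgf29. All sgSgf29 libraries were above all sgCtrl libraries, and the difference was modest. The means were 364 ± 22.6 and 453 ± 14.5 CPM, with a 1.24-fold rise (log2 fold change 0.32, 95% interval 0.18 to 0.45, adjusted p = 2.7e-04 by edgeR). Of all tested genes 61% changed by more. The gene lies on the plus strand of chr2:91082374-91115759.

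The C/EBP factors did not move as 1 group. Cebpb and Cebpe rose, Cebpd fell and Cebpa did not pass. Cebpb measured 339, 302 and 399.6 CPM with sgCtrl and 514, 454 and 442 CPM with sgSgf29. It was the most variable of the 8 among the sgCtrl libraries (coefficient of variation 14.2%), and the groups still did not overlap. Its log2 fold change was 0.44 (95% interval 0.26 to 0.62, adjusted p = 1.3e-04 by edgeR), the largest rise among the factors. Cebpb, a single-exon gene on the plus strand of chr2:167688915-167690432, shares 312 exonic bases with Tmem189 on the opposite strand. Tmem189 was higher as well, from 104 ± 5.89 to 124 ± 4.55 CPM, and if strand was not used in counting their reads cannot be fully told apart.

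Cebpe, whose product drives the late granule genes of neutrophils, was at 257, 235 and 256 CPM with sgCtrl and at 332, 327 and 336 CPM with sgSgf29. The sgSgf29 libraries lay close together and all above the sgCtrl libraries. Its log2 fold change of 0.41 (95% interval 0.28 to 0.54, adjusted p = 7.1e-06 by edgeR) corresponds to 1.33-fold. Cebpe lies on the minus strand of chr14:54710363-54712174.

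Cebpd measured 73.2, 64.4 and 80.6 CPM with sgCtrl and 50.3, 51.1 and 59.3 CPM with sgSgf29. It was the only C/EBP factor among the 8 that fell, without overlap between the groups. The log2 fold change was -0.44 (95% interval -0.62 to -0.27, adjusted p = 8.2e-05 by edgeR). Cebpd lies on the plus strand of chr16:15887286-15889545 and shares 562 exonic bases with Spidr on the opposite strand. Spidr did not pass the test, at 21.4 ± 1.24 and 23.6 ± 1.38 CPM.

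Cebpa was at 193, 196 and 229 CPM with sgCtrl and at 219, 202 and 211 CPM with sgSgf29. The groups overlapped, and the highest and the lowest value were both sgCtrl libraries. Its means were 206 ± 19.8 and 211 ± 8.37 CPM (log2 fold change 0.03, 95% interval -0.12 to 0.18, adjusted p = 0.699 by edgeR). The interval spans folds of 0.923 to 1.13. Cebpa lies on the plus strand of chr7:35119293-35121928.

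Ikzf1 rose from 106, 116 and 126 CPM with sgCtrl to 156, 155 and 157 CPM with sgSgf29. The sgSgf29 values were nearly equal to each other and above all sgCtrl values. The log2 fold change was 0.43 (95% interval 0.29 to 0.57, adjusted p = 1.1e-05 by edgeR). Ikzf1 is on the plus strand of chr11:11684962-11772930.

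Id2 had the fewest counts of the 8, and rose from 33.2, 35.1 and 38.6 CPM to 42.9, 45.6 and 46.5 CPM. No sgSgf29 library was within the range of the sgCtrl libraries. The log2 fold change was 0.33 (95% interval 0.17 to 0.50, adjusted p = 7.1e-04 by edgeR), and 58.7% of tested genes changed by more. Id2 is on the minus strand of chr12:25093799-25096092.

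**Figure D2:**
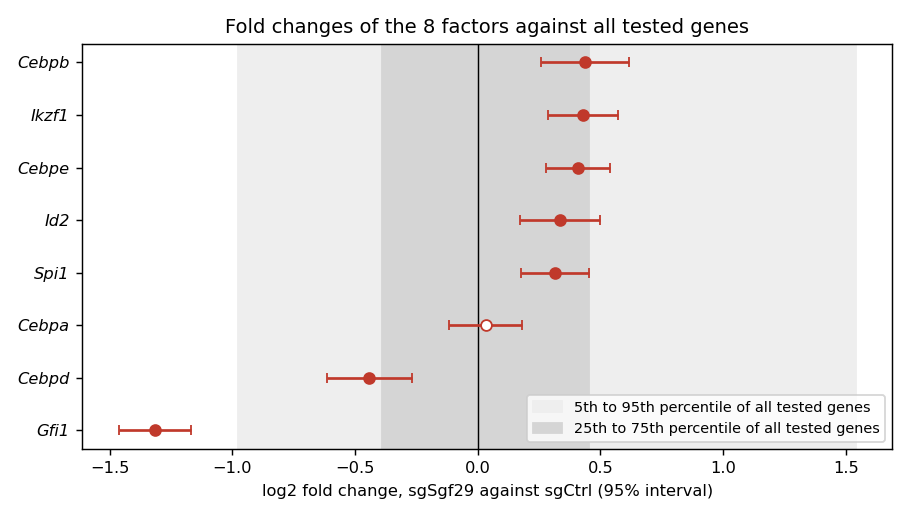
Log2 fold change of each factor (sgSgf29 against sgCtrl) with its 95% interval, filled where the adjusted p was under 0.05. Grey bands hold the middle of all tested genes: the 25th to 75th percentile runs from -0.39 to 0.45 and the 5th to 95th from -0.98 to 1.54. Gfi1 at -1.31 lies outside the wider band, and Cebpd at -0.44 lies outside the narrower one.

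Levels of different genes were compared as CPM per kilobase of RefSeq exon. In the sgCtrl cells the order of the levels was Cebpb (228 ± 32.5), Spi1 (227 ± 14.1), Cebpe (201 ± 9.95), Gfi1 (91.6 ± 5.52), Cebpa (78.1 ± 7.51), Cebpd (32.2 ± 3.58), Id2 (28.0 ± 2.17) and Ikzf1 (20.5 ± 1.76). Cebpb and Spi1, Gfi1 and Cebpa, and Cebpd and Id2 overlapped as neighbors in that order. In the sgSgf29 cells Cebpb (309.7 ± 25.6), Spi1 (282 ± 9.05) and Cebpe (268 ± 3.70) again led. Gfi1 dropped from rank 4 to rank 5 at 36.8 ± 2.68, behind Cebpa at 79.9 ± 3.18, and Cebpd took rank 8 at 23.7 ± 2.21. Id2 then stood at 35.4 ± 1.50 and Ikzf1 at 27.6 ± 0.17. Cebpb and Spi1 again overlapped, as did Gfi1 and Id2. The order depends on the annotated length: with GENCODE exons, Spi1 was at 135 in the sgCtrl cells, behind Cebpe at 201, and Id2 came last at 14.6.

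The balance within each family was described by the share of each gene in the summed CPM per kilobase of its family, with no test, since 3 against 3 libraries cannot go below an exact p of 0.1. Summed over Cebpa, Cebpb, Cebpd, Cebpe and Cebpg, the level rose from 548 ± 50.1 to 692 ± 27.5 CPM per kilobase. Ddit3, a related C/EBP gene that fell, was not part of that sum. Cebpb made up 41.5% ± 2.10 of that sum in sgCtrl cells and 44.7% ± 1.99 in sgSgf29 cells, and Cebpe 36.9% ± 2.12 and 38.7% ± 1.51, with overlap between the groups for both. Cebpa held 13.5%, 14.8% and 14.4% with sgCtrl and 11.5%, 11.4% and 11.8% with sgSgf29. Cebpa thus held a smaller share in each sgSgf29 library although its own level did not pass the test. Cebpd fell from 5.86% ± 0.142 to 3.43% ± 0.401. Among the Id genes, Id2 held 20.6% ± 1.62 of the sum in sgCtrl cells and 31.4% ± 2.50 in sgSgf29 cells, the remainder being Id1. Ikzf1 stayed at 85.3% ± 0.602 and 85.8% ± 0.993 of the Ikaros family, and Spi1 at 99.97% ± 0.0298 and 99.98% ± 0.0240 of the sum with Spib and Spic.

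**Figure D3:**
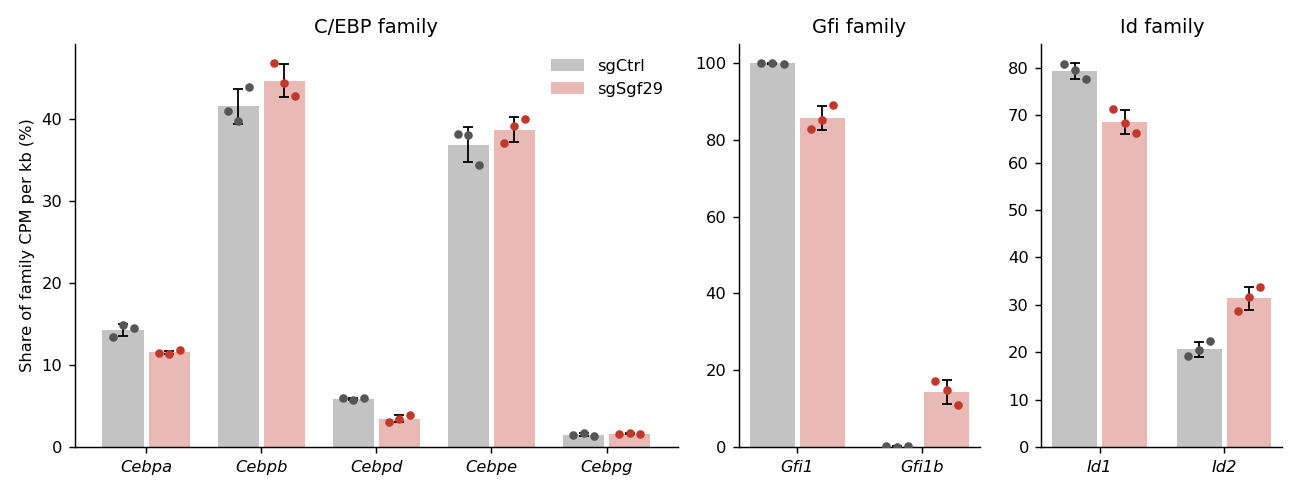
Share of each gene (%) in the summed CPM per kilobase of its family. Bars are means, error bars the SD of 3 libraries and points single libraries. The share of Gfi1b went from 0.0931% to 14.3%, that of Id2 from 20.6% to 31.4%, and that of Cebpa from 14.2% to 11.5%.

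Gfi1b, the paralog of Gfi1 that acts mainly in erythroid and megakaryocyte cells, moved opposite to Gfi1. It had 3, 1 and 4 counts in the sgCtrl libraries and 222, 255 and 180 counts in the sgSgf29 libraries. That is a rise from 0.152 ± 0.0742 to 11.1 ± 2.13 CPM, a ratio of 69.7 with an exact 95% counting interval of 35.2 to 162. Gfi1b thereby reached 14.3% ± 3.21 of the summed Gfi level per kilobase, and Gfi1 went from 99.9% ± 0.0483 to 85.7% ± 3.21. Megakaryocyte marker genes summed to 8.37 to 9.66 CPM with sgCtrl and 5.72 to 7.50 CPM with sgSgf29, and Pf4 and Gp1bb were at 0. Within that sum Itga2b fell from 2.34 ± 0.339 to 1.05 ± 0.251 CPM. Gp9, at 6.74 ± 0.592 and 5.44 ± 1.11 CPM, did not pass. Ppbp, which was not tested, went the other way, from 0.102 to 0.361 CPM. These single markers were named after their values were seen. Erythroid markers summed to at most 2.10 CPM in each library, with the globin genes Hba-a1, Hbb-bs and Hbb-bt at 0. Of the other corepressor partners of Gfi proteins, the scaffold Rcor1 (log2 fold change 0.55) and the deacetylase Hdac1 (0.49) rose, the deacetylase Hdac2 (-0.53) and the methyltransferase Ehmt2 (-0.33) fell, and the demethylase Kdm1a had a value of 0.04 and did not pass. With library size scaling Ehmt2 no longer passed (-0.10) and Kdm1a did (0.27). The list of 6 relatives thus had 3 higher, 2 lower and 1 not passed, where 35.4% of all tested genes were higher and 34.4% lower. Gfi1b passed the filter on low counts only through the sgSgf29 libraries, and the median log2 fold change of the other 5 was 0.04.

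Of 6 relatives of the C/EBP factors, 5 were tested, 3 rose, 1 fell and 1 did not pass, with a median log2 fold change of 0.42. Among all tested genes 35.4% were higher and 34.4% lower. Trib1, a pseudokinase that directs C/EBPα to degradation, rose from 7.12 ± 2.31 to 15.6 ± 1.20 CPM. Rfwd2, the symbol in the table for the ubiquitin ligase Cop1 that Trib1 recruits, rose from 53.1 ± 4.35 to 71.2 ± 2.79 CPM, and Cebpg from 38.4 ± 1.57 to 53.2 ± 2.85 CPM. Ddit3, a C/EBP protein of the stress response, fell from 21.1 ± 1.20 to 12.2 ± 1.10 CPM. Trib3 was at 30.6 ± 1.28 and 35.5 ± 7.25 CPM and did not pass, and Trib2 was at 0. Trib3 passed with library size scaling (0.44), without the low count filter (0.21), and without sgSgf29 replicate 2 (0.31) or 3 (0.30).

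Of 9 relatives and partners of PU.1, 6 were tested, with 3 higher, 1 lower and 2 not passed. Among all tested genes 35.4% were higher and 34.4% lower. Gata1 passed the filter on low counts only through the group where it is high, and without it the median log2 fold change was 0.03. Runx1, which acts upstream of Spi1 and beside PU.1, rose from 44.6 ± 2.75 to 74.2 ± 4.76 CPM. Jun, a coactivator of PU.1, fell from 18.8 ± 2.44 to 7.83 ± 1.17 CPM. Gata1, an erythroid factor that opposes PU.1, had 0, 0 and 5 counts with sgCtrl and 10, 34 and 15 counts with sgSgf29. The ratio of the summed counts was 10.02 with an exact counting interval of 4.06 to 32.0, which does not hold the spread between libraries. It was 6.91 without sgCtrl replicate 1, 6.75 without sgSgf29 replicate 2, and at least 10.1 without sgCtrl replicate 3, where no sgCtrl count is left and a floor of 3 counts over the group was used, and the size of the rise thus rests on few counts. Irf8, the monocyte partner of PU.1, had a log2 fold change of 0.59 with overlapping groups (adjusted p = 0.045 by edgeR), and lost its call when sgCtrl replicate 2, sgCtrl replicate 3, sgSgf29 replicate 1 or sgSgf29 replicate 2 was left out, at 0.31 to 0.67, and under DESeq2 (adjusted p = 0.086).

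Of 4 relatives of Ikzf1, 2 were tested. Ikzf4 rose from 1, 7 and 4 counts with sgCtrl to 34, 51 and 40 counts with sgSgf29, and passed the filter on low counts only through the latter. The ratio of the summed counts was 8.84 with an exact counting interval of 4.89 to 17.6, and 14.97 without sgCtrl replicate 2, which holds most of the sgCtrl counts. The number of relatives called higher, 1, became 2 without any 1 of the sgCtrl libraries, under DESeq2 and without the low count filter. Ikzf5 was not called in those fits. The number became 3 without sgSgf29 replicate 1. Ikzf3, not tested in the main fit, went from 0.0166 ± 0.0288 to 0.580 ± 0.263 CPM without overlap between the groups. Ikzf5 was at 15.2 ± 0.618 and 17.6 ± 1.38 CPM and did not pass, although it did without sgSgf29 replicate 1 (0.28) and with library size (0.44) or upper-quartile scaling (0.24), and Ikzf2 was at 0. Of 6 relatives of Id2, 4 were tested, with 2 lower, 1 higher and 1 not passed and a median of -0.37. Beside both lists, 34.4% of all tested genes were lower and 35.4% higher. Id1 fell from 125 ± 2.84 to 90.1 ± 6.75 CPM, opposite to Id2. The E proteins that Id2 binds also differed, since Tcf3 fell (log2 fold change -0.33), Tcf12 rose (0.65) and Tcf4, at -0.42, did not pass. Tcf3 lost its call with library size scaling (-0.10), and Tcf4 passed without sgSgf29 replicate 1 (-0.62).

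Known target genes were counted in lists chosen from textbook knowledge, with earlier results of these data known. The counts are therefore descriptions and not independent of the data. Of 15 PU.1 targets, 14 were tested, and 10 rose, 1 fell and 3 did not pass, where 35.4% of all tested genes were higher and 34.4% lower. Of these 10, Fcgr1 and Ctss passed the filter on low counts only through the sgSgf29 libraries. Of the other 12 tested targets, 8 rose, with a median log2 fold change of 0.71 beside 0.01 for all tested genes. The integrin subunits Itgam and Itgb2 rose from 136 ± 7.91 to 532 ± 34.4 CPM and from 289 ± 2.28 to 711 ± 16.1 CPM. The macrophage proteins Mpeg1 and Cd68 rose from 6.82 ± 1.07 to 39.4 ± 3.73 CPM and from 12.3 ± 1.36 to 56.6 ± 3.26 CPM. Csf2ra, the α chain of the GM-CSF receptor, fell by 0.27 on the log2 scale, a call lost with library size scaling (-0.04).

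Of 6 targets of the early factor C/EBPα, 4 fell and 2 rose, with a median of -1.22, where 34.4% of all tested genes were lower and 35.4% higher. The genes that fell encode primary granule proteins: Ctsg went from 1917 ± 141 to 222 ± 47.1 CPM, Prtn3 from 7032 ± 697 to 1912 ± 139.7 CPM, Mpo from 191 ± 20.8 to 53.7 ± 21.2 CPM and Elane from 14233 ± 679 to 9299 ± 166 CPM. The cytokine receptors Il6ra and Csf3r rose, from 8.80 ± 1.56 to 31.6 ± 4.30 CPM and from 45.5 ± 5.12 to 65.4 ± 1.77 CPM. Cebpa itself did not pass the test.

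Of 8 targets of the late factor C/EBPε, 6 were higher and 2 lower, with a median of 1.51, beside the same shares of all tested genes. Cd177, Chil3, Mmp9 and Lcn2, products of the later granules or of the surface of maturing neutrophils, rose by log2 fold changes of 1.62, 2.12, 1.97 and 1.39. Ltf, the defining gene of secondary granules, fell from 66.6 ± 3.16 to 36.8 ± 1.11 CPM. Camp, at 1002 ± 41.9 and 896 ± 16.4 CPM, passed with an adjusted p of 0.039 by edgeR, and lost that call without sgCtrl replicate 1 or 2 or sgSgf29 replicate 2 or 3, at -0.17 to -0.13, while with library size scaling its value was 0.07.

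Of 9 C/EBPβ and C/EBPδ targets 7 were tested, with 4 higher, 2 lower and 1 not passed. Among all tested genes 35.4% were higher and 34.4% lower. Il1b and Ptgs2 passed the filter on low counts through only 1 of the groups, and the other 5 had 3 higher, 1 lower and a median of 1.25. The interleukin-1 antagonist Il1rn (27.5 ± 2.88 to 202 ± 8.68 CPM), the acute phase proteins Hp (570.1 ± 44.6 to 1360.5 ± 29.7 CPM) and Saa3 (1.87 ± 0.537 to 10.8 ± 3.45 CPM) and the cytokine Il1b (0.507 ± 0.145 to 2.30 ± 0.303 CPM) rose. Nos2 fell from 23.1 ± 0.782 to 12.5 ± 0.688 CPM, and Ptgs2 had 56 counts in all sgCtrl and 24 in all sgSgf29 libraries, a call that was lost without sgSgf29 replicate 2, at -1.04.

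The genes that Gfi1 is known to repress did not share a direction. Of 11 listed, 9 were tested, with 4 higher, 3 lower and 2 not passed. Since 35.4% of all tested genes were higher and 34.4% lower, this split is near the background. Without Gfi1b, 3 of the listed genes were higher and 3 lower, with a median of -0.24. Gfi1b, Meis1 (log2 fold change 0.46) and Csf1 (0.70) rose, Irf8 was called with the limits given above, which leave 3 higher genes under DESeq2, and Hoxa9 (-1.37), Id1 (-0.47) and Cdkn1a (-0.24) fell. Hoxa9, a leukemia gene under MLL-AF9, went from 165 ± 7.86 to 63.8 ± 4.68 CPM. Cdkn1a lost its call without sgSgf29 replicate 2 (-0.19) and with library size scaling (-0.01).

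**Figure D4:**
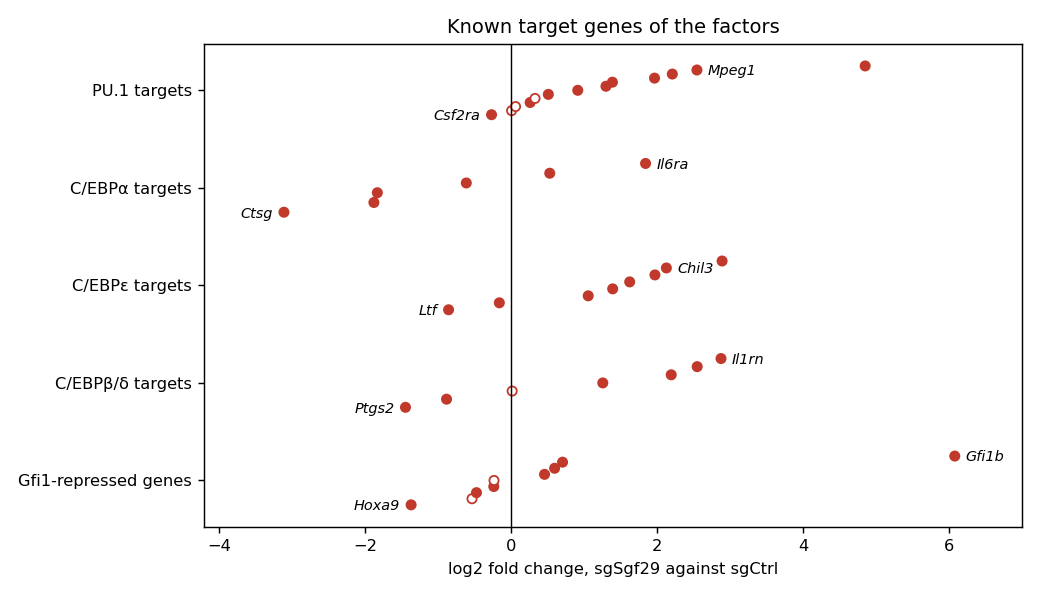
Log2 fold changes of tested target genes of the factors (x axis), by list (y axis), filled where the adjusted p was under 0.05, with some genes named. Fcgr1, at 0 in the sgCtrl libraries, is not drawn. PU.1 and C/EBPε targets lie mostly to the right of 0, C/EBPα targets mostly to the left, and Gfi1-repressed genes on both sides.

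The label of myeloid leukemia was compared with marker genes. Calls among the markers stand beside 35.4% of all tested genes higher and 34.4% lower. Neutrophil markers summed to 7152 to 7756 CPM with sgCtrl and 21690 to 23300 CPM with sgSgf29, with 6 of 8 higher. Most of that sum was S100a9 (3446 ± 224 to 13070 ± 427 CPM) and S100a8 (2778 ± 81.2 to 7964 ± 402 CPM). The rise of the sum is thus mainly that of these genes, and Ltf and Camp were the 2 lower markers. Progenitor markers summed to 719.8 to 743 CPM and 345 to 394 CPM, with 4 of 6 tested lower and Cd34 at 0. Monocyte and macrophage markers summed to 1403 to 1592 CPM and 1166 to 1208 CPM, with Mrc1 and Marco at 0. That fall was of Ly6c2, which took most of the sum and went from 1490 ± 101 to 1034 ± 26.7 CPM. Of the 6 tested markers 4 rose, but Fcgr1 passed the filter on low counts only through the sgSgf29 libraries. Of the other 5, 3 rose, 1 fell and 1 did not pass. The sum without Ly6c2 was 26.3 to 29.5 CPM with sgCtrl and 147 to 169 CPM with sgSgf29. Ly6c2, S100a8 and S100a9 were named after their values were seen. Marker and target lists share genes, so they are not separate observations. Ltf, Camp and Mmp8 are also C/EBPε targets, Mpo a C/EBPα target, and Fcgr1 and Csf1r PU.1 targets. Hoxa9 and Meis1 are also in the list of Gfi1-repressed genes. The part of these marker changes in the results on the factors and their targets was not tested. Fewer cells of a type and less RNA per cell cannot be told apart in these bulk libraries.

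The genes whose log2 CPM over the 6 libraries was most like that of Gfi1, among 9172 compared, were Memo1 (Pearson r 0.9996), Elac2 (0.9994) and Kansl2 (0.9992). For Cebpb, the factor with the largest rise, they were Tsc22d3 (0.992), Rtfdc1 (0.991) and Tesk1 (0.991). These values are descriptions, since the libraries share the difference between the groups.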

How the data were processed

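Messenger RNA was sequenced in 6 of the 14 samples of the series, and the other 8, of chromatin immunoprecipitation, were not analysed here. The authors deposited raw counts per gene in 1 table. STAR, featureCounts and edgeR are named in the study's methods. STAR 2.6.0a and the GRCm38 build appear in the submitters' processing notes. Reads not assigned to a gene stand in 5 htseq-count style bookkeeping rows (25.8% to 31.4% of all counts) and were left out. The labels name a directional kit. The column names of the table show that duplicates were marked before counting. Whether they were counted is not given in the sources used here, nor is the annotation or the strand setting.

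Counts of 11169 genes that passed filterByExpr (at least 10 counts, 15 in total) were scaled by TMM. The edgeR quasi-likelihood test (version 4.0.16, under R 4.3.3) was run with no covariate, Benjamini-Hochberg adjustment over all tested genes and a threshold of 0.05. The biological coefficient of variation was 6.61%. SDs are of CPM after TMM. The procedure was tested on simulated data with few changed genes, as many up as down. That test does not cover scaling where most genes change, as here. Alternatives used other scalings, DESeq2 1.42.0, limma-voom (limma 3.58.1), different filters, a stricter threshold, the replicate number as a block, each library left out in turn and other gene lengths. Libraries of a group differed beyond sampling noise, with chi-square values per degree of freedom from 4.48 to 15.4. Counting intervals cover counting error only.

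Coordinates and promoter sequences are from RefSeq on GRCm38.p6, overlaps from GENCODE. Spi1, Cebpd and Cebpe had no promoter window in the table used. The factors, gene lists and motifs were chosen with earlier results of these data known. Named genes were all 8 factors, Sgf29, every tested gene of lists of up to 6 genes, up to 4 called genes per direction with the smallest adjusted p from longer lists, and the 3 genes most correlated with the largest rise and fall among genes of at least 5 CPM. Markers are given as sums, and the values of some single markers are not reported here.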

Additional observations from a re-analysis of the deposited data

How the results depend on the processing

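The fit kept 2 of the 8 factors lower and 5 higher under every alternative tried except scaling by library size, where Cebpa joined the higher ones (log2 fold change 0.26, adjusted p = 0.00192 by edgeR). That scaling called 2385 genes lower and 5575 higher (29.96% of calls lower, against 49.26% under TMM), with a median log2 fold change of 0.24. Cebpa ranged from -0.01 to 0.11 with 1 library left out, and was -0.013 without sgCtrl replicate 1 and -0.0059 without sgCtrl replicate 2. The adjusted p of Gfi1 was at most 2.6e-09 over the 16 alternatives. With the replicate block, 3937 genes were lower and 4059 higher, and the calls of the 8 factors did not change, and the numbers were not taken as pairs, since same-numbered deviations correlated at only 0.0414, 0.113 and 0.151, although every library correlated best with its own number, a hint from the data and not from the design. Without division by length, the change in family share was -3.73 percentage points for Cebpa, -3.15 for Cebpd, 0.52 for Cebpg and -8.87 for Gfi1. List counts without genes that passed the filter through 1 group, ratios with 1 library left out and GENCODE lengths were chosen after seeing the data. With those lengths it was -1.52 for Cebpd and 7.33 for Id2. Among other genes, uncalled in these fits, the sign turned for Tyrobp under RLE scaling (-0.0050), TMM without ribosomal protein genes (-0.0019), DESeq2 (-0.0023), and with sgCtrl replicate 3 (-0.025) or sgSgf29 replicate 1 left out, within -0.0368 to 0.0585 over the 6 libraries left out in turn. It turned for Gata2 (0.053) and Camp (0.069) with library size scaling. With 1 library left out it turned for Cbfb (-0.0020 to 0.059), Btk (-0.0043 to 0.16, which passed without sgCtrl replicate 3) and Tnf (-0.054 to 0.063). The cause was not tested. Small changes rest on 522 to 10084 counts per factor and library.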

Other observations

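Marker genes of other blood lineages were present at low levels. Eosinophil, basophil and mast cell markers summed to 9.91 to 10.4 CPM with sgCtrl and to 4.28 to 4.98 CPM with sgSgf29, with Cpa3 and Fcer1a at 0. Most of that sum was Mcpt8, which fell from 9.61 ± 0.333 to 2.80 ± 0.511 CPM. Epx went the other way, from 0.0223 to 0.954 CPM, and passed the filter on low counts only through the sgSgf29 libraries. Ms4a2, which was not tested, went from 0.199 to 0.529 CPM. T and NK cell markers summed to 7.56 to 8.69 CPM and to 3.03 to 4.28 CPM, with Cd3e and Cd8a at 0. That fall was of Nkg7, from 7.89 ± 0.719 to 3.23 ± 0.663 CPM, the only tested gene of the list. Dendritic cell markers summed to 0.318 to 0.669 CPM and to 2.39 to 2.93 CPM, with Siglech at 0. Here the rise was of Itgax, from 0.334 ± 0.193 to 2.56 ± 0.250 CPM, which passed the filter only through the sgSgf29 libraries. These single genes were named after their values were seen. B cell markers stayed at no more than 0.508 CPM and fibroblast markers at no more than 0.541 CPM in any library.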
